A study of Mus musculus with 30 samples.

Results

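Lefty1, Lefty2, Nodal, Tdgf1 and Apela were followed across every group of a mouse embryonic stem cell experiment. They were taken by name as ligands, a coreceptor and inhibitors of the Nodal pathway plus the peptide hormone gene Apela, and all 5 were among the 12428 genes with values and passed the low-level filter. The choice was made with earlier results of these data known, so counts set beside those of all genes are descriptions. All lines lacked Kmt2c and were naive embryonic stem cells (C57BL/6J x 129) kept in medium with serum, LIF and 2i, a pair of inhibitors of MEK and GSK3. In 1 line without a transgene the second gene, Kmt2d, was present in floxed form (written Kmtd fl/fl in the labels) and cells received tamoxifen for 8 h or 16 h. The Kmt2c-KO GRHL2-ERT line had the same floxed background plus GRHL2-ERT and received ethanol, the vehicle, or tamoxifen for 8 h or 16 h. The double-KO GRHL2-ERT line lacked both Kmt2c and Kmt2d, carried GRHL2-ERT and received the same treatments. This gave 10 groups of 3 libraries, 30 in all, and no ethanol group of the line without GRHL2-ERT was analysed here. The GRHL2-ERT lines came from clones picked for similar GRHL2 levels, and the labels give neither how many clones nor whether replicates were separate cultures, so the p-values below measure only the spread between these libraries.

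GRHL2 is a grainyhead-family transcription factor of epithelial cells, and GRHL2-ERT is its fusion to a modified estrogen receptor domain that keeps it inactive until tamoxifen is added. KMT2C and KMT2D are histone methyltransferases that act at enhancers. Nodal is a TGF-beta family ligand that signals through activin receptors and SMAD2 and SMAD3, with the membrane protein Cripto (the product of Tdgf1) as its coreceptor. Lefty1 and Lefty2 encode secreted antagonists that block Nodal and Cripto, and both are themselves induced by Nodal signalling, which closes a negative feedback loop in the early embryo. Apela encodes a short secreted peptide, also called Elabela or Toddler, that activates the apelin receptor and is known for its part in gastrulation and in stem cell survival.

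Lefty2 (ENSMUSG00000066652.5, chromosome 1: 180893108 to 180899103, plus strand, 4 exons) and Lefty1 (ENSMUSG00000038793.8, chromosome 1: 180935022 to 180938400, plus strand, 4 exons) are neighbours in the mm10 annotation, 35918 bases apart. Nodal (ENSMUSG00000037171.6) lies on chromosome 10 at 61417972 to 61425338 on the plus strand with 3 exons. Tdgf1 (ENSMUSG00000032494.12) lies on chromosome 9 at 110939603 to 110946158 on the minus strand with 7 exons in its longest transcript. Apela (ENSMUSG00000079042.10) lies on chromosome 8 at 65028417 to 65037336 on the minus strand with 4 exons. The libraries read the ends of transcripts, and in the last 500 bases of the annotated transcripts 11 of 451 windows of 50 bases in Lefty1 (2.44%) also occur in Lefty2, so a small part of the Lefty1 signal is uncertain. No such window of the other 4 genes occurs in another gene. The annotated gene Gm45886 overlaps Apela, and it has no value of its own in the measured set.

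The windows of 250 bases before the start of Apela, Nodal and Tdgf1 are shown because these are the members with a RefSeq promoter entry (GRCm38.p6, 3 of 5 matched) and because Apela was called in a tamoxifen comparison below while Nodal and Tdgf1 were in none. They read 5′ to 3′ on the strand of the gene: Apela chr8:65037337-65037586 (minus), Nodal chr10:61417722-61417971 (plus) and Tdgf1 chr9:110946159-110946408 (minus). Capitals mark any match to the motifs searched on both strands.
Apela: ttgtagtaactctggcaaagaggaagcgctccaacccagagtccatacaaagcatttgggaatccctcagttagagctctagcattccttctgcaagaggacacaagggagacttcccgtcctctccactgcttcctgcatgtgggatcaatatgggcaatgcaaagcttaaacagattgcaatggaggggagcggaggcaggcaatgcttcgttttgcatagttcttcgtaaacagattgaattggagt
Nodal: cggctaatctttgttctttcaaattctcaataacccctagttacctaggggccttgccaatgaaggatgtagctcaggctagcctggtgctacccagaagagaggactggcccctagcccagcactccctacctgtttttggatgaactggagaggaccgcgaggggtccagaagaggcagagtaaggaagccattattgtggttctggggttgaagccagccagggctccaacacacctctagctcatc
Tdgf1: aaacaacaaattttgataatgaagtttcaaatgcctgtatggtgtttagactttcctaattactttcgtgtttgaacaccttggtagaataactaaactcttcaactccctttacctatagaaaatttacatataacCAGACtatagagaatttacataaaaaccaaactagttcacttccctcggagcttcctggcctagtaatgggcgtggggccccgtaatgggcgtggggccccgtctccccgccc
The motif CAGAC, bound by SMAD proteins, was found 113 bases before the start of Tdgf1 (at -113) and is present in 42.2% of 32817 mouse promoter windows of this length. The grainyhead motif AACCNGTT (1.78% of all windows), the FOXH1 motif AATCCACA (0.719%), the SMAD palindrome GTCTAGAC (0.168%), the TCF/LEF motif CTTTGAT (3.21%) and the octamer ATGCAAAT (1.60%) had no match in these 3 windows, which says nothing of sites elsewhere.

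Levels are given in CPM, read counts scaled to a common library total. Recovered depth was 8.86 M to 22.1 M reads per library (M, 1e6), so 3 reads correspond to 0.136 to 0.339 CPM, and the lowest value among the 5 genes rested on 42.0 reads. Replicate 2 of the double-KO tamoxifen 8 h group was the shallowest library and correlated least with its group (mean r = 0.938, against a median of 0.987 over all libraries), and 7.37% of its reads were Rn45s, a ribosomal RNA gene, against a median of 2.85% over all libraries. The share was also high in the Kmt2c-KO GRHL2-ERT ethanol 8 h group, at 5.39%, 4.02% and 7.40%, the last the highest of the 30 libraries. Grhl2 was at 1.78 to 2.66 CPM in the groups without the transgene. It was at 77.5 to 178 CPM in the Kmt2c-KO GRHL2-ERT groups and 41.2 to 78.3 CPM in the double-KO groups. Reads of Kmt2c and Kmt2d came from the 3′ end and did not check the deletions, whose position the labels do not give. All 12 naive stem cell markers listed were measured and above 0 in every library, with summed levels of 8497 to 11561 CPM in the Kmt2c-KO groups and 4445 to 5858 CPM in the double-KO groups. Most of that gap was Dppa5a, and the other 11 markers summed to 2023 to 3225 CPM in the Kmt2c-KO groups and 2674 to 2958 CPM in the double-KO groups. Such a sum is led by abundant genes and does not show that each marker was alike. Over the 30 libraries Nr0b1 ran from 0.226 CPM, a few reads, to 64.2 CPM, and Dppa3 from 0.587 to 79.3 CPM. Of 10 mesendoderm markers 6 were measured and summed to 9.36 to 15.3 CPM per group, of 11 primitive endoderm markers 8 summed to 267 to 499 CPM, most of it Sparc, and of 8 trophoblast markers 5 summed to 81.7 to 289 CPM. Of 9 fibroblast markers 4 summed to 1.19 to 12.1 CPM, highest in the double-KO groups. Formative and primed epiblast markers, 7 measured of 8, summed to 137 to 150 CPM in the Kmt2c-KO groups at 8 h and 81.1 to 84.7 CPM at 16 h. In the double-KO groups they summed to 55.6 to 69.4 CPM.

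**Figure D1:**
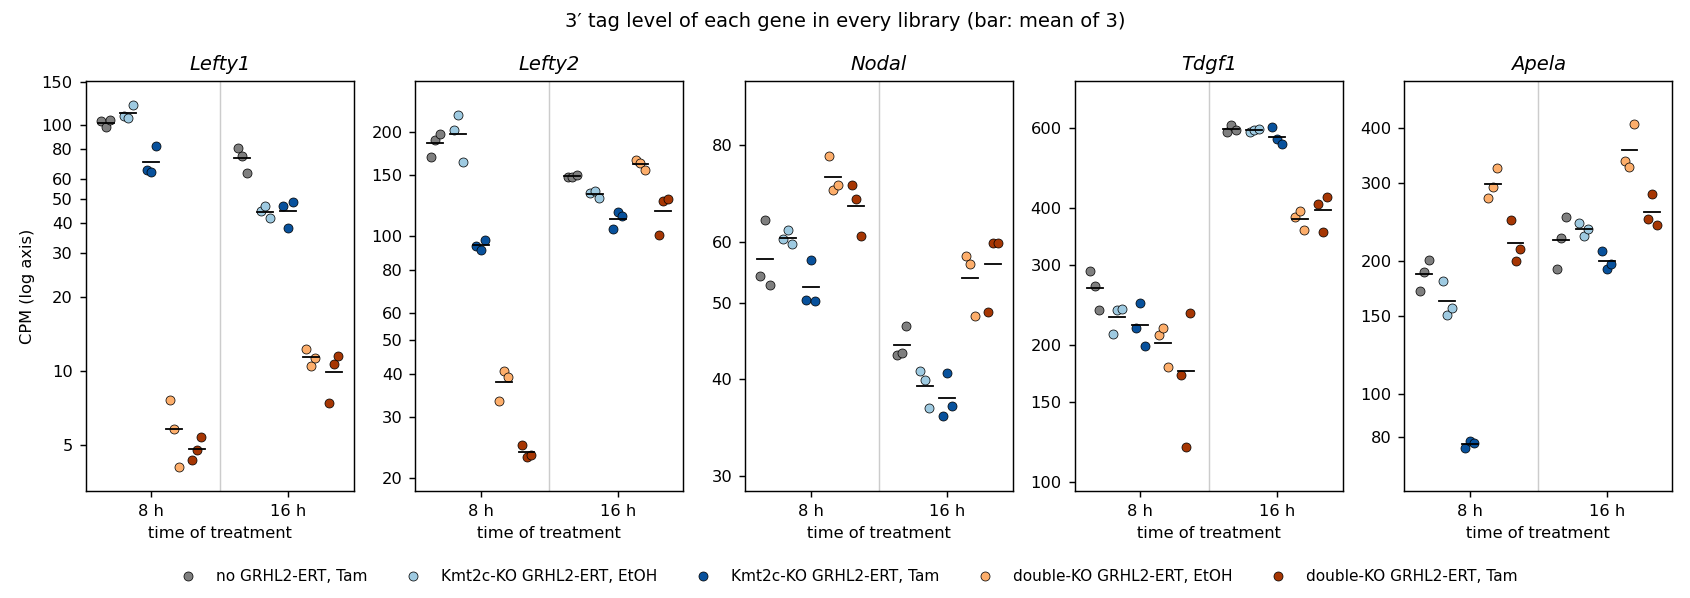
Level of Lefty1, Lefty2, Nodal, Tdgf1 and Apela in each of the 30 libraries, in CPM on a log axis, by line, treatment and time. Points are libraries and bars are means of 3. Lefty1 is 4.05 to 12.3 CPM in every double-KO library and 37.98 to 121 CPM in every Kmt2c-KO library, and Apela is lowest in the Kmt2c-KO GRHL2-ERT tamoxifen 8 h group.

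The 5 genes differed widely in how far they moved across the groups. Lefty1 had the widest range, with group means from 4.82 CPM (double-KO, tamoxifen, 8 h) to 112 CPM (Kmt2c-KO GRHL2-ERT, ethanol, 8 h), a 23.2-fold span. Lefty2 spanned 8.32-fold between the same 2 groups, from 23.7 to 197 CPM. Apela spanned 4.63-fold, from 77.1 CPM in the Kmt2c-KO GRHL2-ERT tamoxifen 8 h group to 357 CPM in the double-KO ethanol 16 h group. Tdgf1 spanned 3.40-fold, from 176 to 597 CPM, and Nodal 1.92-fold, from 37.8 to 72.7 CPM. At CPM scale the ligand gene thus moved least and its feedback antagonists most. In bulk RNA, fewer cells of a kind and less RNA per cell cannot be told apart.

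Tamoxifen for 8 h in the Kmt2c-KO GRHL2-ERT line lowered both Nodal antagonist genes and Apela, while the ligand and coreceptor genes did not pass the test. Of the 5 genes 3 fell and 2 did not pass, against 4.95% of all 12414 genes tested (called at a limma adjusted p under 0.05 on log2(CPM + 1)). Lefty2 was at 203, 225 and 163 CPM in ethanol and at 93.5, 91.1 and 97.2 CPM in tamoxifen. Every tamoxifen library was below every ethanol library, the mean fell by 52.3%, and the fitted log2 change was -1.05 ± 0.11 (SE; limma adjusted p = 1.5e-07). Lefty1 was at 109, 106 and 121 CPM in ethanol and 65.8, 64.3 and 81.9 CPM in tamoxifen. These groups did not overlap either, and the change was smaller and less certain (-0.66 ± 0.16, limma adjusted p = 0.012). The Lefty1 call was lost without ethanol replicate 3 (adjusted p = 0.062), tamoxifen replicate 1 (0.063) or tamoxifen replicate 2 (0.081).

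Apela fell as much as Lefty2 in this comparison and with a tighter spread. It was at 180, 151 and 156 CPM in ethanol and 75.5, 78.4 and 77.5 CPM in tamoxifen. The groups were far apart, and the log2 change was -1.06 ± 0.11 (limma adjusted p = 1.6e-07). Nodal was at 60.5, 62.1 and 59.5 CPM in ethanol and 50.5, 56.8 and 50.3 CPM in tamoxifen. All tamoxifen libraries lay below all ethanol libraries, but the change of -0.21 ± 0.11 did not pass (limma adjusted p = 0.30). Tdgf1 overlapped between ethanol (212, 239 and 240 CPM) and tamoxifen (218, 247 and 199 CPM), with a change of -0.060 ± 0.14 (limma adjusted p = 0.87). Beside these falls, the Rn45s share was 4.02 to 7.40% in the ethanol and 3.10 to 3.47% in the tamoxifen libraries, and the 11 naive markers other than Dppa5a summed to 2504 to 2612 CPM in ethanol and 1999 to 2042 CPM in tamoxifen. Neither overlapped between treatments. Dppa5a itself went the other way, with a mean of 5943 CPM in ethanol and 7440 CPM in tamoxifen. All 12 markers thus summed to 8497 CPM in ethanol and 9464 CPM in tamoxifen. The part of the Rn45s share and of these markers in the result was not tested. Without ethanol replicate 3, which had the highest Rn45s share, Lefty2 (-1.18) and Apela (-1.08) remained called.

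Of the other 66 pathway genes tested from 90 listed, 2 rose and 1 fell at 8 h in this line, 4.55% of them and so near the 4.95% of all genes, with a median log2 change of 0.099, against 0.031 over all genes. Fstl1, a follistatin-like secreted glycoprotein, fell with the Lefty genes, from 214 ± 19.6 to 131 ± 5.79 CPM (SD, n = 3), a log2 change of -0.71 ± 0.11 (limma adjusted p = 0.00015). Smad3, a transcription factor that carries the Nodal signal to the nucleus, rose from 8.59 ± 0.91 to 16.1 ± 1.54 CPM (0.84 ± 0.21, limma adjusted p = 0.015). Id2, an inhibitor of helix-loop-helix factors and a BMP target gene, rose from 94.3 ± 6.98 to 139 ± 9.84 CPM (0.56 ± 0.11, limma adjusted p = 0.0015). In the line without GRHL2-ERT in tamoxifen at 8 h, Fstl1 was at 192 ± 4.91, Smad3 at 10.4 ± 0.71 and Id2 at 98.6 ± 12.3 CPM. Tested against that line, 3 of the 66 pathway genes rose and 1 fell by limma, 6.06% against 4.07% of all genes. Among these calls, 1 of the 7 antagonist genes besides Lefty1 and Lefty2 fell. In the list of SMAD2/3 mediators 0 of 21 genes, Smad3 among them, were called against that line. Against ethanol, 0 of 11 tested SMAD2/3 target genes other than members were called by limma. Of the 7 antagonist genes tested besides Lefty1 and Lefty2, Fstl1 was the 1 that fell and 0 rose, with a list median of 0.47.

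At 16 h in the same line none of the 5 genes passed, where 0.298% of all genes did. Lefty2 was at 133, 135 and 129 CPM in ethanol and 105, 118 and 114 CPM in tamoxifen, and Apela at 244, 228 and 236 CPM in ethanol and 211, 192 and 197 CPM in tamoxifen. For both genes all tamoxifen libraries were below all ethanol libraries, a separation that was not counted over all genes. The log2 changes were nearly equal, -0.24 ± 0.11 for each, and did not pass (limma adjusted p = 0.96 for Lefty2 and 0.98 for Apela). Fitted on these 6 libraries alone, Apela passed (limma adjusted p = 0.042). Lefty1 stood at the same level in both treatments (44.3 ± 2.46 and 44.6 ± 5.76 CPM, SD, n = 3), with a change of 0.0017 ± 0.16. Nodal changed by -0.049 ± 0.11 and Tdgf1 by -0.047 ± 0.14, both with overlapping libraries and a limma adjusted p of 1. Of the other 66 pathway genes, 0 passed at 16 h.

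**Figure D2:**
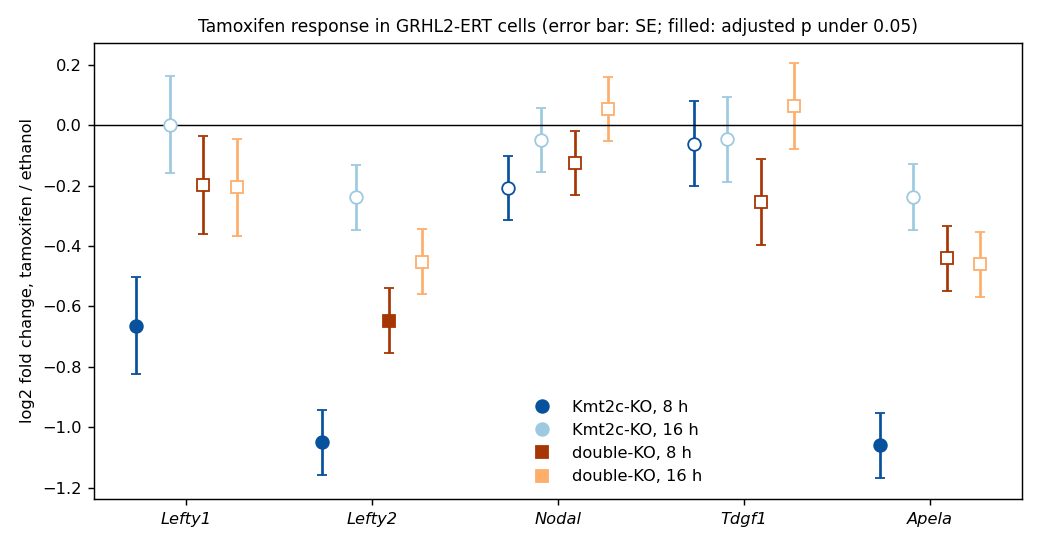
Log2 fold change, tamoxifen against ethanol, of each of the 5 genes in the Kmt2c-KO (circles) and double-KO (squares) GRHL2-ERT lines at 8 h and 16 h. Error bars are SE, and filled symbols passed a limma adjusted p of 0.05. Lefty2 and Apela are below 0 in all 4 comparisons, at -1.05 and -1.06 in the Kmt2c-KO line at 8 h, and Nodal and Tdgf1 lie between -0.25 and 0.063 with no call.

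In the double-KO line at 8 h only Lefty2 passed, 1 of the 5 genes, where 0.0967% of all genes were called. Lefty2 was already low in ethanol, at 33.4, 40.7 and 39.1 CPM, and lower in tamoxifen, at 24.8, 22.9 and 23.3 CPM. The groups did not overlap, and the change was -0.65 ± 0.11 (limma adjusted p = 0.0036). The call was lost without ethanol replicate 2 (adjusted p = 0.056) and in a fit of these 6 libraries alone (0.78). Apela was at 277, 294 and 325 CPM in ethanol and 247, 200 and 213 CPM in tamoxifen, also without overlap. Its change of -0.44 ± 0.11 did not pass (limma adjusted p = 0.099), and it did without tamoxifen replicate 1 (0.041) or tamoxifen replicate 3 (0.013).

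Lefty1 was near the bottom of its range in both treatments, at 7.59, 5.80 and 4.05 CPM in ethanol and 4.34, 4.74 and 5.37 CPM in tamoxifen. The libraries overlapped, and the change was -0.20 ± 0.16. Nodal overlapped as well (-0.12 ± 0.11). Tdgf1 was at 211, 218 and 179 CPM in ethanol and 172, 120 and 235 CPM in tamoxifen, the widest spread of any group of this gene. Its change was -0.25 ± 0.14 (limma adjusted p = 0.30), -0.0056 without the shallow tamoxifen replicate 2, and called (-0.49, limma adjusted p = 0.0065) without tamoxifen replicate 3. Without replicate 2 Lefty2 kept its call (-0.62 ± 0.11, limma adjusted p = 0.0088), and Apela was at -0.37 ± 0.11 (0.42).

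At 16 h in the double-KO line 0.0403% of all genes were called, and none of the 5 genes. Lefty2 was at 166, 163 and 155 CPM in ethanol and 101, 126 and 128 CPM in tamoxifen. Apela was at 337, 326 and 409 CPM in ethanol and 249, 284 and 242 CPM in tamoxifen. Both genes were lower in all tamoxifen libraries than in any ethanol library, again a separation not counted over all genes. Their changes of -0.45 ± 0.11 and -0.46 ± 0.11 did not pass (limma adjusted p = 0.18 for each). With the double-KO tamoxifen 8 h group left out of the shared spread, a setting chosen after seeing the data, both passed (limma adjusted p = 0.046 for Lefty2 and 0.030 for Apela). Lefty1 (-0.21 ± 0.16), Nodal (0.054 ± 0.11) and Tdgf1 (0.063 ± 0.14) overlapped between treatments. Of the other 66 pathway genes, 0 passed in the double-KO line at 8 h or at 16 h, and their median changes were -0.13 and -0.071.

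Whether the response differed between the lines was tested by the interaction, double-KO minus Kmt2c-KO. At 8 h Apela alone passed, 1 of 5 genes against 1.43% of all genes, with a difference of 0.62 ± 0.15 (limma adjusted p = 0.037), so that its fall was smaller in the double-KO line. The call was lost without any of 8 of the 12 libraries, at adjusted p = 0.052 to 0.13. It held without Kmt2c-KO ethanol replicate 2, double-KO ethanol replicate 3, or double-KO tamoxifen replicate 2 or replicate 3, and was 0.69 ± 0.15 (limma adjusted p = 0.013) without double-KO tamoxifen replicate 2. It was also lost in a fit of these 12 libraries alone (0.41). The differences were 0.47 ± 0.23 for Lefty1 (limma adjusted p = 0.20), 0.40 ± 0.15 for Lefty2 (0.12), 0.084 ± 0.15 for Nodal and -0.19 ± 0.20 for Tdgf1. Grhl2 was higher in the Kmt2c-KO line (170 ± 16.4 CPM in tamoxifen, against 78.3 ± 40.8 CPM in the double-KO line at 8 h), and its part in these differences was not tested. At 16 h 0% of genes differed between the lines by limma (315 at an unadjusted p under 0.05, and 0 with voom weights), and the 5 genes differed by -0.22 to 0.11.

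Whether the response faded was tested as 16 h minus 8 h within a line. In the Kmt2c-KO line Lefty2 (0.81 ± 0.15) and Apela (0.82 ± 0.15) passed, both with a limma adjusted p of 0.022, and they were 2 of the 8 genes called of 12414 (0.0644%). The fall of both was thus smaller at 16 h. The adjusted p rose to 0.058 to 0.099 for Lefty2 without any of 10 of the 12 libraries, all but ethanol 8 h replicate 3 and tamoxifen 16 h replicate 1. For Apela it rose to 0.056 to 0.099 without any of 11 of the 12, all but ethanol 8 h replicate 2. The differences themselves stayed within 0.71 to 0.94 for Lefty2 and 0.75 to 0.87 for Apela. Lefty1 differed by 0.67 ± 0.23 (limma adjusted p = 0.52), Nodal by 0.16 ± 0.15 and Tdgf1 by 0.014 ± 0.20. In the double-KO line 0% of genes passed by limma (714 at an unadjusted p under 0.05, and 0 with voom weights), with 0.20 ± 0.15 for Lefty2 and -0.020 ± 0.15 for Apela. Grhl2 itself was lower at 16 h than at 8 h in the Kmt2c-KO line (77.5 ± 11.5 and 170 ± 16.4 CPM in tamoxifen), and its part was not tested.

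The line without GRHL2-ERT gives a second reference, with the drug but without the factor. This comparison shares the tamoxifen libraries of the Kmt2c-KO GRHL2-ERT line with the one against ethanol, so the 2 are not independent. At 8 h Lefty2 and Apela were again lower with GRHL2-ERT, 2 of the 5 genes where 4.07% of all genes were called. Lefty2 was at 170, 190 and 197 CPM without the transgene, above every GRHL2-ERT tamoxifen library (-0.97 ± 0.11, limma adjusted p = 4e-07). Apela was at 171, 189 and 202 CPM, also above all of them (-1.27 ± 0.11, limma adjusted p = 5.7e-09). Lefty1 was at 104, 97.9 and 105 CPM, without overlap, and missed the threshold (-0.53 ± 0.16, limma adjusted p = 0.059; 0.048 without GRHL2-ERT tamoxifen replicate 3). Nodal differed by -0.11 ± 0.11 and Tdgf1 by -0.27 ± 0.14, neither past the test.

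At 16 h Lefty1 alone passed against the line without GRHL2-ERT, 1 of 5 genes where 0.975% of all genes did. It was at 80.7, 74.5 and 63.9 CPM without the transgene and 46.9, 37.98 and 48.7 CPM with it (-0.70 ± 0.16, limma adjusted p = 0.024). The call was lost without replicate 1 (0.15) or replicate 2 (0.11) of the line without GRHL2-ERT, and without replicate 1 (0.058) or replicate 2 (0.18) of the GRHL2-ERT line. The same size of difference was there in ethanol, where GRHL2-ERT cells were at 44.6, 46.6 and 41.7 CPM (-0.70 ± 0.16, limma adjusted p = 0.060, a comparison chosen after seeing the data). In that ethanol comparison, which shares the libraries without GRHL2-ERT and also differs in vehicle, none of the 5 genes passed at 8 h (0.105% of all genes called) or at 16 h (0.169%). Lefty2 (-0.41 ± 0.11, limma adjusted p = 0.062), Nodal (-0.22 ± 0.11), Apela (-0.15 ± 0.11) and Tdgf1 (-0.058 ± 0.14) did not pass in tamoxifen at 16 h.

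Between the double-KO and Kmt2c-KO GRHL2-ERT lines both Lefty genes differed widely at 8 h, and Apela differed in the opposite direction. In ethanol at 8 h, Lefty1 was at 7.59, 5.80 and 4.05 CPM in the double-KO line and 109, 106 and 121 CPM in the Kmt2c-KO line. The lowest Kmt2c-KO library was far above the highest double-KO library, the means differed 19.3-fold, and the log2 change was -4.08 ± 0.16 (limma adjusted p = 9.9e-18). Lefty2 was at 33.4, 40.7 and 39.1 CPM against 203, 225 and 163 CPM, a 5.22-fold difference of means (-2.35 ± 0.11, limma adjusted p = 2.6e-16). Apela went the other way, at 277, 294 and 325 CPM against 180, 151 and 156 CPM (0.88 ± 0.11, limma adjusted p = 2e-07). Each line is a selected clone or clones, so the deletion and other differences between the lines cannot be told apart.

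These calls stand against a large background. At 8 h 4 of the 5 genes were called where 49.4% of all genes were, and the median of all genes was 0.31 higher in the double-KO line. Of all calls 76.0% were higher in the double-KO line at CPM scale and 49.5% after median-of-ratios scaling, which centres the median, so small differences turn on the scaling. Lefty1 (-4.36) and Lefty2 (-2.66) kept their calls under that scaling, and Apela did too (0.56, limma adjusted p = 0.00039). Nodal was at 69.8 to 77.2 CPM in the double-KO line and 59.5 to 62.1 CPM in the Kmt2c-KO line, a called change of 0.25 ± 0.11 (limma adjusted p = 0.048) that lies below the shift of all genes, turned to -0.057 with median-of-ratios scaling and was lost without any 1 of the 6 libraries (0.060 to 0.16). Tdgf1 differed by -0.19 ± 0.14 and did not pass at CPM scale (limma adjusted p = 0.28), and passed at -0.50 after median-of-ratios scaling (0.0019). The summed naive stem cell markers were 4615 CPM in the double-KO and 8497 CPM in the Kmt2c-KO ethanol 8 h group, and without Dppa5a 2674 and 2554 CPM. Their part in the difference was not tested.

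At 16 h in ethanol the 2 antagonist genes parted. Lefty1 remained low in the double-KO line, at 12.3, 10.4 and 11.3 CPM against 44.6, 46.6 and 41.7 CPM, a 3.91-fold difference of means (-1.88 ± 0.16, limma adjusted p = 1.9e-10). Lefty2 was at 166, 163 and 155 CPM against 133, 135 and 129 CPM, now higher in every double-KO library. All 5 genes were called, where 50% of all genes were and the median gene was 0.35 higher in the double-KO line. The Lefty2 change of 0.28 ± 0.11 (limma adjusted p = 0.030) lies below that shift and was -0.085 after median-of-ratios scaling. It was lost (0.052 to 0.086) without any 1 of 5 of the 6 libraries, all but double-KO replicate 3. Nodal (0.45 ± 0.11, limma adjusted p = 0.00089) and Apela (0.59 ± 0.11, 5.7e-05) were higher in the double-KO line at CPM scale, and neither passed after median-of-ratios scaling (0.089 and 0.22). Tdgf1 was lower, at 382, 393 and 358 CPM against 588, 594 and 596 CPM (-0.65 ± 0.14, limma adjusted p = 0.00040), and further below after that scaling (-1.02, 1.1e-07).

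The step from 8 h to 16 h in ethanol had opposite directions for the Lefty genes in the 2 lines. In the Kmt2c-KO GRHL2-ERT line all 5 genes were called, against 45% of all genes. Lefty1 fell from 112 ± 7.60 to 44.3 ± 2.46 CPM (-1.32 ± 0.16), Lefty2 fell from 197 ± 31.0 to 132 ± 2.95 CPM (-0.56 ± 0.11) and Nodal fell from 60.7 ± 1.32 to 39.1 ± 2.21 CPM (-0.62 ± 0.11; SD over 3 libraries, then log2 change ± SE). Tdgf1 rose from 230 ± 15.8 to 592 ± 4.27 CPM (1.36 ± 0.14), and Apela rose from 162 ± 15.6 to 236 ± 8.29 CPM (0.54 ± 0.11). These calls held without any 1 library and under median-of-ratios scaling. In the double-KO line 4 of 5 were called, against 21.3% of all genes. Lefty1 rose from 5.81 ± 1.77 to 11.3 ± 0.92 CPM (0.89 ± 0.16), and Lefty2 rose 4.27-fold, from 37.7 ± 3.82 to 161 ± 5.85 CPM (2.07 ± 0.11, limma adjusted p = 6.9e-14). Nodal fell (-0.43 ± 0.11) and Tdgf1 rose (0.90 ± 0.14), as in the other line, and Apela did not pass (0.25 ± 0.11, limma adjusted p = 0.095).

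The difference of these steps between the lines, a test chosen after seeing the data, was called for Lefty1 and Lefty2, 2 of the 5 genes, against 4.84% of all genes. It was 2.21 ± 0.23 for Lefty1 (limma adjusted p = 5.9e-07) and 2.63 ± 0.15 for Lefty2 (2.2e-12). Both calls held without any 1 of the 12 libraries, and with other pseudocounts, no filter, median-of-ratios scaling, voom weights or these 12 libraries alone. Nodal (0.20 ± 0.15), Tdgf1 (-0.46 ± 0.20, limma adjusted p = 0.20) and Apela (-0.29 ± 0.15) did not pass. Of the other 66 pathway genes 3 passed, all with a higher difference, 4.55% and so near the 4.84% of all genes. They included Gnai2 (0.82 ± 0.13, limma adjusted p = 0.00020), a G protein subunit that couples to receptors such as the apelin receptor, and Id2 (0.90 ± 0.15, 0.00040). After median-of-ratios scaling 1 of 11 tested SMAD2/3 target genes other than members was called, with a higher difference. The labels name no preparation batch, so harvest time and any difference in preparation between the 8 h and 16 h sets cannot be told apart.

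**Figure D3:**
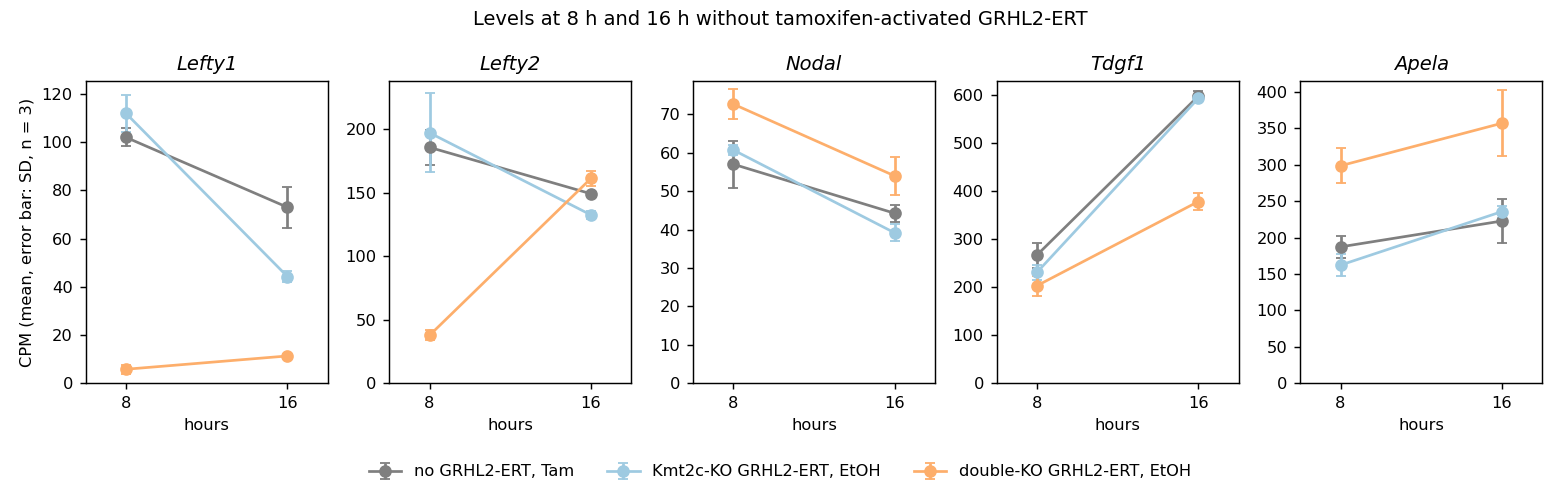
Mean level in CPM (error bar: SD, n = 3) of the 5 genes at 8 h and 16 h in the Kmt2c-KO and double-KO GRHL2-ERT lines in ethanol and in the line without GRHL2-ERT in tamoxifen. Lefty1 and Lefty2 fall with time in the Kmt2c-KO GRHL2-ERT line and rise in the double-KO line, while Nodal falls and Tdgf1 rises in every line at CPM scale.

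In the line without GRHL2-ERT, in tamoxifen, 4 of the 5 genes were called between 8 h and 16 h, against 36.6% of all genes. Tdgf1 rose from 266 ± 26.0 to 597 ± 9.93 CPM (1.17 ± 0.14), as in the other lines. Lefty1 fell from 102 ± 3.67 to 73.0 ± 8.49 CPM (-0.48 ± 0.16), Lefty2 from 186 ± 14.04 to 149 ± 1.21 CPM (-0.31 ± 0.11) and Nodal from 57.0 ± 6.08 to 44.2 ± 2.15 CPM (-0.35 ± 0.11). The median of all genes was -0.15, and after median-of-ratios scaling Lefty1 (-0.31, limma adjusted p = 0.13), Lefty2 (-0.14, 0.35) and Nodal (-0.19, 0.20) did not pass, while Apela did (0.42, 0.0086). Leaving out 1 library also ended 3 calls. The Lefty1 call was lost without 16 h replicate 3 (0.10), 8 h replicate 1 (0.051) or 8 h replicate 3 (0.058). The Lefty2 call was lost without any library but 8 h replicate 1 (0.051 to 0.094), and the Nodal call without 8 h replicate 2 (0.080). Apela passed without 16 h replicate 1 (0.023).

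At CPM scale, pathway genes other than the 5 were called between the lines in ethanol about as often as all genes were. At 8 h, of 66 tested, 28 were higher and 9 lower in the double-KO line, 56.1% against 49.4% of all genes, with a median of 0.41 against 0.31 over all genes. Of these calls 75.7% were higher, against 76.0% of all calls. At 16 h 32 were higher and 4 lower, 54.5% against 50% of all genes, and 88.9% of these calls were higher, against 80.1% of all calls. After median-of-ratios scaling the counts were 22 higher and 11 lower at 8 h and 23 higher and 10 lower at 16 h. Over all genes that scaling gave 5235 calls at 8 h and 5148 at 16 h, 49.5% and 50.0% of them higher. The pathway calls thus leaned to higher levels more than all calls did under that scaling. The BMP branch held 10 of the higher calls at each time, and the other lists, which share some genes, were mixed. At 8 h SMAD2/3 mediators were 5 higher and 3 lower, target genes 4 and 4, and antagonists 2 and 0. Receptors were 1 and 1, ligands 0 and 1, and apelin receptor genes 2 and 3. At 16 h these counts were, in the same order, 7 and 5, 5 and 2, 1 and 1, 2 and 1, 1 and 1, and 0 and 2. In the BMP branch, with a list median of 1.15 at 8 h, 13 of 16 tested genes were higher and 1 lower at 8 h (10 and 1 after that scaling), and 11 were higher at 16 h (10 after it). Id1, a direct BMP target, rose from 17.7 ± 0.83 to 197 ± 46.4 CPM at 8 h (3.37 ± 0.27, limma adjusted p = 2.7e-10). The ligand gene Bmp4 (2.31 ± 0.30, limma adjusted p = 3.7e-07) and the receptor gene Bmpr2 (1.69 ± 0.19, 4.6e-08) were higher too. The ligand gene Bmp2 was at 4.70 to 5.97 CPM in the double-KO ethanol 8 h libraries and at 0.081 to 0.31 CPM, a level of a few reads, in the Kmt2c-KO GRHL2-ERT ones (limma adjusted p = 5.7e-10).

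Genes closest to Nodal itself were mixed. Among receptors other than Tdgf1, Acvr2b, an activin type II receptor gene, was lower in the double-KO line at 8 h (27.7 ± 3.99 to 12.7 ± 1.60 CPM, -1.07 ± 0.19, limma adjusted p = 5.5e-05) and at 16 h (-0.51 ± 0.19, 0.029). Tgfbr2, the TGF-beta type II receptor gene, was at 0.73 to 1.37 CPM in the double-KO line at 8 h and at 0 in all 3 Kmt2c-KO GRHL2-ERT ethanol libraries (limma adjusted p = 0.00076). Fst, which encodes the activin-binding protein follistatin, was higher at 8 h (2.91 ± 0.56, limma adjusted p = 0.00021) and at 16 h (2.02 ± 0.56, 0.0051), so antagonist genes did not move as 1 group. Of 11 SMAD2/3 target genes tested besides the members, 4 were higher and 3 lower at 8 h (4 and 4 after median-of-ratios scaling), and 7 were higher and 1 lower at 16 h (5 and 2). Of all genes 49.4% were called at 8 h and 50% at 16 h, with 76.0% and 80.1% of the calls higher at CPM scale. Pmepa1, a feedback inhibitor of TGF-beta signalling, was higher at 16 h (1.24 ± 0.12, limma adjusted p = 2e-09). The endoderm factor gene Foxa2 was at 4.96 to 8.30 CPM against 0.063 to 0.24 CPM, a few reads, at 16 h (limma adjusted p = 4.8e-08). Eomes, a mesendoderm T-box factor gene, was lower at 16 h (-1.56 ± 0.21, limma adjusted p = 6.5e-07). Genes of the apelin receptor list other than Apela were 2 higher and 3 lower at 8 h of 7 tested. Foxh1, Cer1, Aplnr, Apln, Acvr1b and Inhba were not analysed here.

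**Figure D4:**
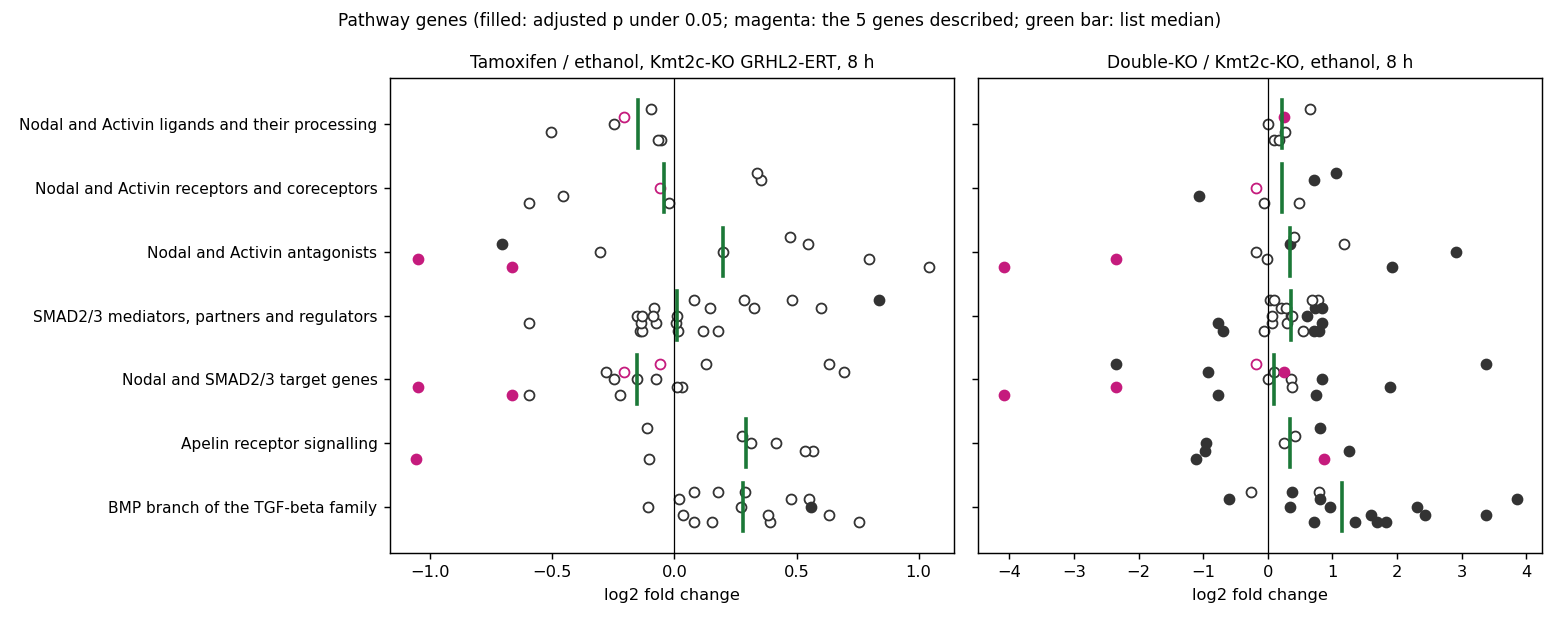
Log2 fold change of each tested gene of 7 pathway lists for tamoxifen against ethanol in the Kmt2c-KO GRHL2-ERT line at 8 h (left) and double-KO against Kmt2c-KO in ethanol at 8 h (right). Filled points passed a limma adjusted p of 0.05, magenta points are the 5 genes described, and green bars are list medians. Lefty2 and Apela are the lowest points of their lists on the left, and on the right the BMP list has a median of 1.15.

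The profiles of the 5 genes over the 10 groups were compared with each other and with 8912 genes that varied, by Pearson correlation of log2 group means. The groups share lines and times, so these are descriptions without a test. They hold at CPM scale, and likeness after median-of-ratios scaling was not computed. Lefty1 and Lefty2 had r = 0.74, and Nodal and Tdgf1 had r = -0.89. Apela had r = -0.59 with Lefty1 and r = -0.097 with Lefty2, although the latter pair fell together with tamoxifen. Closest to Lefty1 were Tdrd12 (0.99), Lsg1 (0.99), Mtap7d3 (0.98), Fam169b (0.98) and Upp1 (0.98). Among the closest to Lefty2 were Sall1 (0.97), Mphosph6 (0.95), Arl4a (0.94) and Rfc4 (0.93). Closest to Nodal were Trrap, Eif3b, Rnf214, Map1s and Cactin (all 0.99), and closest to Tdgf1 were Rnf138, Vprbp, Taf8, H2afz and Tefm (0.98 to 0.99). Closest to Apela were Oat (0.94), Vim (0.93), Spred1 (0.93), Epha7 (0.93) and Ndufaf4 (0.92).

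The order of levels differed by gene. For Lefty1 the 4 double-KO groups (4.82 to 11.3 CPM) lay below all 6 Kmt2c-KO groups (44.3 to 112 CPM), and in ethanol and tamoxifen at 16 h the Kmt2c-KO GRHL2-ERT groups (44.3 and 44.6 CPM) did not differ beyond their spread. For Lefty2 only the double-KO 8 h groups (23.7 and 37.7 CPM) lay apart from the rest, which ran from 93.9 to 197 CPM with neighbours such as 112 ± 6.82 and 118 ± 15.3 CPM that overlapped. For Tdgf1 the order followed time, with every 8 h group (176 to 266 CPM) below every 16 h group (378 to 597 CPM). For Nodal it ran from 37.8 CPM in the Kmt2c-KO GRHL2-ERT tamoxifen 16 h group to 72.7 CPM in the double-KO ethanol 8 h group in small steps. For Apela the lowest group (77.1 ± 1.49 CPM) stood apart from the next (162 ± 15.6 CPM). The double-KO tamoxifen groups (220 ± 24.4 CPM at 8 h and 259 ± 22.5 CPM at 16 h) overlapped with Kmt2c-KO groups at 16 h (means of 200 to 236 CPM). The double-KO ethanol groups (299 ± 24.0 CPM at 8 h and 357 ± 45.1 CPM at 16 h) lay above every Kmt2c-KO library.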

How the data were processed

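The authors deposited one table of log2 values per gene for 30 libraries of 3′ messenger RNA tags (QuantSeq, single end, per the labels' protocols), which are log2 of CPM plus a common offset of 0.125 CPM. The submitters' processing notes name mm10, Salmon and DESeq2 1.34.0; other steps are not given in the sources used here. The 10 columns of group means and 6 of differences were not used. Columns headed CKO were taken as the Kmt2c-KO GRHL2-ERT line and CKOwt as the line without it, because only so do the treatments match the labels. The offset was removed, depth was recovered from the spacing of low values (94.7 to 97.6% whole within 0.05 reads), and limma 3.58.1 in R 4.3.3 was fitted to log2(CPM + 1) with group means over all 30 libraries, trended and robust variance, for the 12414 genes of at least 1 CPM in a group mean. A gene was called at a two-sided Benjamini-Hochberg adjusted p under 0.05 over all genes. Whether libraries of 2 groups overlapped is given as a description, and was not counted over all genes. The script was tested on simulated data. Fold changes on this scale understate changes of low genes.

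Named are the 5 genes, up to 4 called genes per pathway list and comparison, and the 5 nearest profiles. Some genes that this rule names are not reported here. The members and lists were chosen with earlier results of these data known. Alternatives were pseudocount, filter, scaling, spread, replicate block, voom weights and leaving out each library.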

Additional observations from a re-analysis of the deposited data

Results flagged for a closer look

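In 5 cases the effect of a contrast differed between lines or times by an interaction term in limma. The tamoxifen response of Apela differed between the double-KO and Kmt2c-KO lines at 8 h by 0.62 (log2). The tamoxifen responses of Lefty2 and Apela in the Kmt2c-KO line differed between 16 h and 8 h by 0.81 and 0.82. These calls on tamoxifen responses were fragile to leaving out 1 library. The Apela call between lines was lost without any of 8 of 12 libraries. Between times, Lefty2 was lost without any of 10 of 12 and Apela without any of 11 of 12. A replicate block within each line and time also ended them. The line difference in ethanol moved between 8 h and 16 h by 2.21 for Lefty1 and 2.63 for Lefty2, tests chosen after seeing the data. Groups held 3 libraries, too few to look for single outlying libraries.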

How the results depend on the processing

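Of 1510 values of the 5 genes under other settings, 1403 kept their side of the threshold (23 of them changed sign while passing in neither setting). Beyond these, 70 were lost, 35 were gained, and 2 more were lost with a change of sign. Both changes of sign came with median-of-ratios scaling between the lines in ethanol, Nodal at 8 h (-0.057) and Lefty2 at 16 h (-0.085), neither of them passing. At 16 h 2 members stayed called. Fitted on its own libraries alone, the number of called members became 1 for tamoxifen in the Kmt2c-KO line at 16 h, 0 in the double-KO line at 8 h and for the line interaction at 8 h, and 4 (8 h) and 2 (16 h) for GRHL2-ERT against none. Replicate numbers did not pair libraries (same-number deviations correlated at -0.58 to 0.13), and a replicate block within each line and time left 0 members called in the double-KO line at 8 h, in the line interaction at 8 h and in the time interaction of the Kmt2c-KO line; the Lefty1 fall in that line at 8 h was lost too (adjusted p = 0.11). A block over all libraries changed no call. Without the least correlated library in the shared spread, or its group, the double-KO tamoxifen count at 16 h became 1 and 2, and that of GRHL2-ERT against none at 16 h became 2 in both. The added ethanol comparison with the line without GRHL2-ERT at 16 h rose to 1 with a pseudocount of 5, median-of-ratios scaling, its libraries alone, voom weights, or without that library or its group. Leaving out 1 library gave 0 to 3 called members for tamoxifen in the double-KO line at 8 h, 0 to 1 for the line interaction at 8 h, 0 to 1 for the time interaction of the Kmt2c-KO line, 0 to 1 for GRHL2-ERT against none at 16 h, and 2 to 4 for 16 h against 8 h without GRHL2-ERT. No value of the 5 genes rested on fewer than 42.0 reads, and groups held 3 libraries. The cause of each change was not tested.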
